A study of Mus musculus with 4 samples.

Results

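The angiopoietin and Tie receptor genes are a small signalling family of blood vessels and blood stem cells, and 5 of them were read here among the 49997 genes counted: Angpt1 and Angpt2 (ligands), Tek and Tie1 (receptors) and Ptprb (a receptor phosphatase). They were taken by gene symbol and were selected on their read counts in the untreated and CCCP libraries, with earlier results of this comparison known, so their values are a description. The data are bulk poly(A) RNA from explants of the mouse aorta-gonad-mesonephros (AGM), the embryonic region where blood stem cells arise from the aortic endothelium. Embryos were C57BL/6J, with embryonic days 10.5 and 11.5 named in the growth protocol and day 10.5 alone in the series design. All explants were cultured for 48 h on a membrane filter in MyeloCult medium with hydrocortisone. The 2 untreated libraries came from explants without further agent, and the 2 CCCP libraries from explants given 5 µM CCCP for the 48 h. CCCP is a protonophore, a compound that carries protons across the inner mitochondrial membrane and so collapses its potential.

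Angiopoietin 1 binds Tek (also called Tie2), a receptor tyrosine kinase of endothelial cells and of some blood stem cells, and activates it. Angiopoietin 2 binds the same receptor and can activate or block it depending on context. Tie1 is a related receptor that pairs with Tek, and Ptprb (VE-PTP) removes phosphate from Tek. In the vessel wall this system governs quiescence and junction stability, and Tek is used as a marker of the endothelium from which blood stem cells emerge.

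Both receptor genes lie on chromosome 4. In the RefSeq promoter table (GRCm38.p6, the same build as mm10), 2 of the 5 genes were matched, Tek and Tie1. Letters before the start sites of that table are shown as a description. Their relation to the comparison that follows was not tested. Capitals mark the core GGAA or its reverse complement TTCC, the letters that factors of the ETS family bind. The 250 bases before the Tie1 start site, chr4:118489850-118490099 on the minus strand, held 7 cores:
Tie1: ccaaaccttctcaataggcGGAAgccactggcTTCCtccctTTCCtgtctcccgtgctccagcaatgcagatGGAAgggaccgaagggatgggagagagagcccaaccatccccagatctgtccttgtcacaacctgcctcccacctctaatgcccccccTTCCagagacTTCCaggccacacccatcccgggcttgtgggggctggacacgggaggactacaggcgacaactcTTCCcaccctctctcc
The same stretch of Tek held 2 cores, 89 and 59 bases before the start site of the table, on the plus strand at chr4:94739190-94739213 and chr4:94739220-94739243:
Tek, first core: tgttattcaaTTCCtggcctatga
Tek, second core: acccctattgTTCCtgaaaatgct
The gene model used for the counts starts 203 bases further upstream, so both Tek cores lie inside its first exon. Of 32851 promoters of this length, 93.4% held at least 1 core on either strand, and the median number was 3. At least 2 cores were held by 76.8%, and 7 or more by 3.82%. Neither gene held the forkhead letters GTAAACA, found in 3.17% of promoters, or the hypoxia response letters ACGTG, found in 16.6%, on either strand. These are matches of letters and not measured sites.

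Library totals ran from 37360968 to 48827826 counted reads, and the groups had nearly equal totals (ratio 1.01 for CCCP over untreated). By edgeR (quasi-likelihood, p-values adjusted after Benjamini and Hochberg over all genes) 0 of 19837 genes passed a threshold of 0.05, while 2899 (14.6%) had an unadjusted p under 0.05 and DESeq2 called 594. The labels give the cell type as embryonic stem cells of the blood, and the series design speaks of c-kit+ cells, whereas RNA was extracted from explants according to the extraction protocol. In the libraries the 9 mesenchymal markers summed to 3230 to 5595 CPM (counts scaled to library size, with TMM factors), the 12 endothelial markers to 570 to 746 CPM, the 9 haematopoietic markers to 77.5 to 104 CPM and the 5 macrophage markers to 87.3 to 129 CPM. The hepatic markers, all 6 of them lower in both CCCP libraries, went from 791 to 1335 CPM without treatment to 5.54 to 62.8 CPM with CCCP. In bulk RNA, fewer cells of a type and less RNA per cell cannot be told apart. Nothing in the labels says that replicates came from separate cultures or litters, so p-values measure the spread between these libraries.

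All 5 genes passed the filter on low counts. Angpt1, Tek and Ptprb were lower in both CCCP libraries than in both untreated libraries, whereas Angpt2 and Tie1 had fold changes close to 0. Of all genes tested, 24.8% were lower without overlap and 24.0% were higher without overlap. In edgeR 0 of the 5 passed the adjusted threshold, against 0.0% of all genes. At an unadjusted p under 0.05, 3 were lower, against 9.16% of all genes, and 0 were higher, against 5.45%. DESeq2 called 1 of the 5, against 3.32% of all genes, and edgeR without a filter on low counts also called 1, against 3.43%. The median log2 fold change was -0.49 over the 5 genes and -0.01 over all genes tested. The median of the 5 is the value of Angpt1, which was -0.14 once the trend of each library with GC content was removed. Since the genes were selected on this contrast, nothing is read from these counts or from the median.

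**Figure D1:**
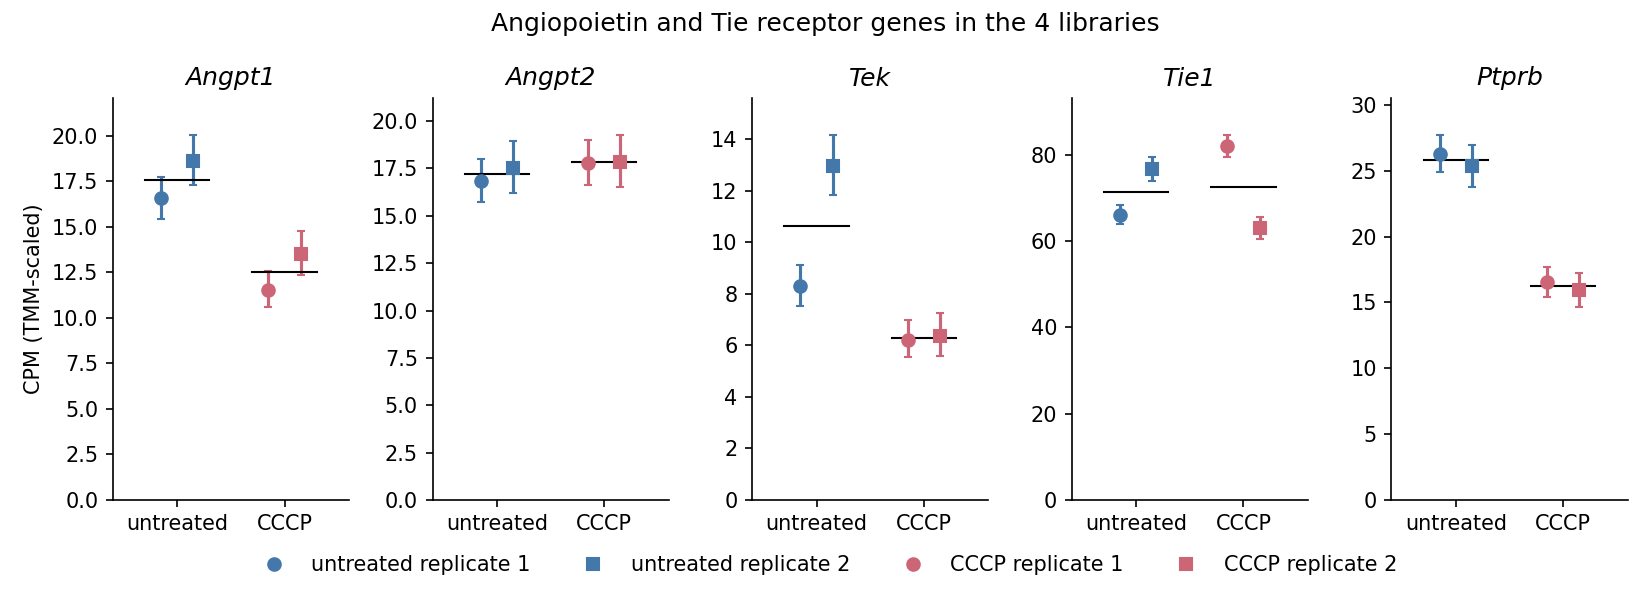
Level of each gene in each library (y axis, CPM after TMM scaling, each panel from 0), with untreated libraries at left and CCCP libraries at right. Points are libraries, bars are 95% Poisson intervals that cover counting error only, and black lines are group means. The intervals take the reads of a pair as independent and so can be too narrow. The CCCP points of Angpt1, Tek and Ptprb all sit below the untreated points, those of Tie1 overlap, and the 4 points of Angpt2 lie between 16.8 and 17.9 CPM.

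Angpt1 (chromosome 15, 42424667 to 42676977, minus strand, 10 exon blocks) encodes the activating ligand, which is made mostly by mesenchymal and mural cells. It was counted at 16.6 and 18.6 CPM in untreated replicates 1 and 2 and at 11.6 and 13.5 CPM in CCCP replicates 1 and 2. Both CCCP libraries were lower than both untreated libraries, and in each group replicate 2 was the higher library. The means were 17.6 ± 1.47 and 12.5 ± 1.40 CPM (SD, n = 2 in each group). The log2 fold change (CCCP over untreated, SE for its standard error) was -0.49 (SE 0.183, edgeR adjusted p = 0.316). Its transcript is poor in GC (39.3%), and once the trend of each library with GC content was removed the log2 fold change was -0.14 (SE 0.175). Of 9 mesenchymal markers, 8 had a fold change below 0, as had 10086 of the 19837 genes tested. Without overlap 3 were lower and 1 higher, against 24.8% and 24.0% of all genes. The higher marker was Twist1, with a log2 fold change of 0.42. The median log2 fold change of the 9 was -0.19. The summed level of these markers was 3230 to 5595 CPM without treatment and 3537 to 4633 CPM with CCCP. Of 10 mural markers, 9 were tested, of which 2 were lower and 1 higher without overlap, against 24.8% and 24.0% of all genes. Of the 9, 5 had a fold change above 0 and 4 below. Abcc9, a potassium channel subunit of pericytes, had the lowest log2 fold change, -0.90 (edgeR adjusted p = 0.251). Acta2 had the highest, 0.50 (edgeR adjusted p = 0.408), and overlapped between the groups. Over the 9 the median was 0.0012 on the log2 scale, with a summed level of 686 to 806 CPM without treatment and 788 to 828 CPM with CCCP. No marker of either list was at 0 in all libraries. Their part in the Angpt1 value was not tested.

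Angpt2 (chromosome 8, 18690263 to 18741562, minus strand, 9 exon blocks) encodes the context-dependent ligand, which endothelial cells store and release. It stood at 16.8 and 17.5 CPM in untreated replicates 1 and 2 and at 17.8 and 17.9 CPM in CCCP replicates 1 and 2. Both CCCP values were the higher, yet all 4 values lie within the counting interval of each other, the one for untreated replicate 1 running from 15.7 to 18.02 CPM. The log2 fold change was 0.05 (SE 0.156, edgeR adjusted p = 0.898), and it was -0.0053 when libraries were scaled by total counts alone. The gene lies wholly within the span of Mcph1 on the opposite strand. Because the counting did not use strand, reads from unspliced Mcph1 RNA cannot be told apart from Angpt2 reads. The spliced exons of the pair share 4 bases. Mcph1 itself stood at 20.01 to 25.5 CPM, with a log2 fold change of -0.13.

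Within each library the balance of the ligands could be read without any scaling. Angpt2 over Angpt1, as counts per kilobase of exon, was 1.26 and 1.16 in untreated replicates 1 and 2 and 1.90 and 1.63 in CCCP replicates 1 and 2. Both CCCP libraries had the higher ratio. On the log2 scale the ratio was 0.28 ± 0.08 without treatment and 0.82 ± 0.16 with CCCP (SD, n = 2), a difference of 0.54, or 1.46-fold. It ran from 0.43 to 0.65 when any 1 library was left out and was 0.24 with the GC trend removed. With 2 libraries against 2, an exact two-sided permutation test cannot go below p = 0.333, so none is given.

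Tek (chromosome 4, 94739086 to 94874976, plus strand, 23 exon blocks) encodes the receptor of both ligands. It stood at 8.29 and 13.0 CPM in untreated replicates 1 and 2 and at 6.22 and 6.37 CPM in CCCP replicates 1 and 2. The CCCP libraries were close to each other and both lower than the untreated libraries, which were far apart. The 95% Poisson intervals of the untreated libraries, 7.51 to 9.13 and 11.8 to 14.2 CPM, did not meet. These intervals take the reads of a pair as independent and so can be too narrow. The means were 10.6 ± 3.31 and 6.29 ± 0.103 CPM (SD, n = 2 in each group), and the log2 fold change was -0.75 (SE 0.273, edgeR adjusted p = 0.308). Untreated replicate 2 set much of its size. The log2 fold change was -0.37 without that library and -1.03 without untreated replicate 1.

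Tie1 (chromosome 4, 118471191 to 118489849, minus strand, 23 exon blocks) encodes the partner receptor. It stood at 66.1 and 76.6 CPM in untreated replicates 1 and 2 and at 82.1 and 63.02 CPM in CCCP replicates 1 and 2. The CCCP libraries held both the highest and the lowest value, and the means were 71.3 ± 7.38 and 72.5 ± 13.5 CPM (SD, n = 2 in each group). The log2 fold change was 0.02 (SE 0.164, edgeR adjusted p = 0.957), and its sign changed under total counts alone, with the GC trend removed, and without untreated replicate 1 or CCCP replicate 1.

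The ratio of the receptors was read in the same way, as a description. Tie1 over Tek, per kilobase of exon, was 10.1 and 7.48 in untreated replicates 1 and 2 and 16.7 and 12.5 in CCCP replicates 1 and 2. The groups did not overlap, with CCCP the higher. The log2 ratio was 3.12 ± 0.31 and 3.86 ± 0.29 (SD, n = 2), a difference of 0.74, and it ran from 0.52 to 0.95 when 1 library was left out. By the fitted fold changes this difference was 0.56 with the GC trend removed.

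**Figure D2:**
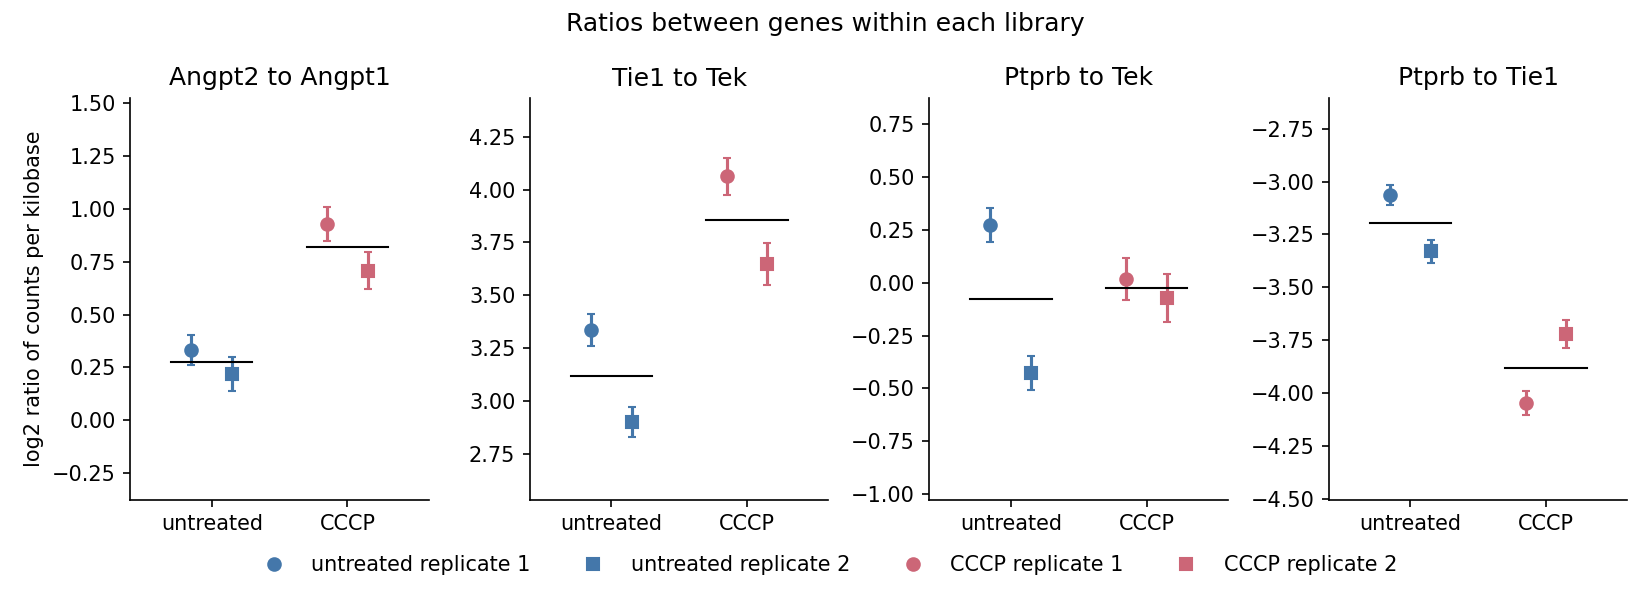
Log2 ratio of counts per kilobase of exon between pairs of genes (y axis, each panel spans the same height) in untreated and CCCP libraries. Points are libraries, bars are the standard error from counting alone, with the reads of a pair taken as independent, and black lines are group means. Angpt2 to Angpt1 and Tie1 to Tek were higher and Ptprb to Tie1 lower in both CCCP libraries, and Ptprb to Tek overlapped between groups.

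Ptprb (chromosome 10, 116275502 to 116389538, plus strand, 35 exon blocks) encodes the phosphatase that restrains Tek and acts on the junction protein VE-cadherin. It stood at 26.3 and 25.3 CPM in untreated replicates 1 and 2 and at 16.5 and 15.9 CPM in CCCP replicates 1 and 2. The libraries of a group lay within 0.966 CPM of each other, and the group means differed by -9.59 CPM (CCCP minus untreated). The means were 25.8 ± 0.683 and 16.2 ± 0.437 CPM (SD, n = 2 in each group). The log2 fold change was -0.67 (SE 0.148, edgeR adjusted p = 0.195), a level 37.2% lower by the fit. DESeq2 called the gene, with an adjusted p of 0.021, and over all 13 alternatives the adjusted p ran from 0.0125 to 0.76. Ptprb has the longest exon length of the 5 genes, 12902 bases against 3560 to 4915, and once the trend of each library with exon length was removed its log2 fold change was -0.35 (SE 0.151).

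Relative to each other, Ptprb and Tek overlapped between the groups. Ptprb over Tek per kilobase of exon was 1.21 and 0.744 in untreated replicates 1 and 2 and 1.01 and 0.952 in CCCP replicates 1 and 2. The difference of this ratio on the log2 scale was 0.05, and it ran from -0.30 to 0.40 when 1 library was left out. By the fitted fold changes it was 0.08, and 0.34 with the exon length trend removed. Ptprb over Tie1 did not overlap, at 0.12 and 0.0994 without treatment and 0.0605 and 0.0759 with CCCP. That difference was -0.69 on the log2 scale, and -0.38 with the exon length trend removed.

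By level per kilobase of exon, Tie1 was the most abundant of the 5 in every library. In untreated explants it stood at 18.4 ± 1.90 CPM per kilobase (SD, n = 2). Angpt2 followed at 4.83 ± 0.139 and Angpt1 at 4.00 ± 0.334 CPM per kilobase, without overlap between them. Tek came next at 2.16 ± 0.673 CPM per kilobase. Ptprb, at 2.04 and 1.96 CPM per kilobase in untreated replicates 1 and 2, overlapped with Tek. With CCCP the order was the same, with Tie1 at 18.7 ± 3.47, Angpt2 at 5.01 ± 0.0164, Angpt1 at 2.85 ± 0.317, Tek at 1.28 ± 0.021 and Ptprb at 1.26 ± 0.0339 CPM per kilobase (SD, n = 2), and Tek and Ptprb again overlapped. The exon length of a gene sums all its annotated exons, so a gene with unused exons is placed too low.

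Since Tek, Tie1 and Ptprb are mainly endothelial transcripts, they were set against the endothelial markers Pecam1, Cdh5, Emcn, Eng, Erg, Fli1, Esam, Egfl7, Cldn5, Kdr, Sox18 and Robo4. Of these 12 markers, 9 had a fold change below 0, as had 10086 of the 19837 genes tested. Without overlap 2 were lower and 0 higher, against 24.8% and 24.0% of all genes. The median log2 fold change of the 12 was -0.10. Erg, an endothelial transcription factor of the ETS family, had the lowest value, -0.46 (SE 0.183, edgeR adjusted p = 0.334). Robo4 had the highest, 0.25 (SE 0.240, edgeR adjusted p = 0.650). The summed level of the markers overlapped, at 570 and 746 CPM in untreated replicates 1 and 2 and 586 and 614 CPM in CCCP replicates 1 and 2. Untreated replicate 2, the library in which Tek was high, also held the most endothelial marker RNA. Whether these are linked was not tested.

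Taken as a percentage of that sum, Tek was 1.45% and 1.74% in untreated replicates 1 and 2 and 1.06% and 1.04% in CCCP replicates 1 and 2. Ptprb was 4.61% and 3.40% without treatment and 2.82% and 2.59% with CCCP. Both were lower in the CCCP libraries without overlap, by -0.60 and -0.55 on the log2 scale. Angpt1 was also lower without overlap on this scale, at -0.37, and Tie1 and Angpt2 overlapped between the groups. The share of all genes without overlap was not computed on this scale. In CPM, 24.8% of all genes were lower and 24.0% higher without overlap. Both Tek and Ptprb had lower fitted log2 fold changes than each of the 12 markers, a description for which no test was run. Since the genes were selected on this contrast, nothing is read from this order. This order holds for the main fit, in which the lowest marker, Erg, was at -0.46. Ptprb was at -0.35 with the exon length trend removed, and Tek at -0.37 without untreated replicate 2. Marker values under these alternatives are not given.

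**Figure D3:**
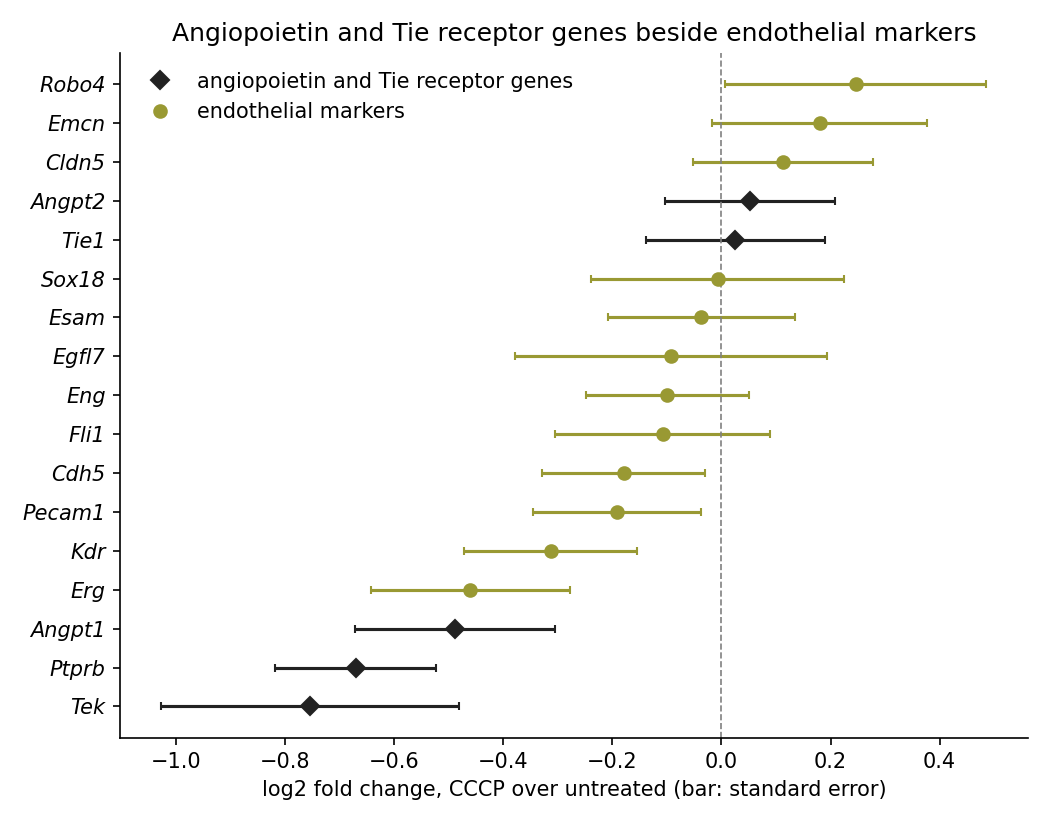
Log2 fold change of CCCP over untreated (x axis, bars are standard errors from edgeR) for the 5 angiopoietin and Tie receptor genes (black diamonds) and 12 endothelial markers (circles), ordered by value. Tek, Ptprb and Angpt1, at -0.75, -0.67 and -0.49, lie below every marker, the lowest of which is Erg at -0.46. Angpt1, which is made mostly by mesenchymal and mural cells, did not lie below every marker of the mesenchymal and mural lists. With the GC trend removed it was at -0.14. The values of Angpt2 and Tie1, whose signs change under some alternatives, lie among the markers. The 5 genes were selected on this contrast, so nothing is read from the order.

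Other genes of the pathway were taken from a list of 26 partners, all of which passed the filter. None of the 26 was called by edgeR at an adjusted p under 0.05, with a smallest adjusted p of 0.166. At an unadjusted p under 0.05 there were 2 lower and 1 higher, 10 of the 26 had a fold change above 0 and 16 below, and the median log2 fold change was -0.07. Groups did not overlap for 6 genes that were higher and 6 that were lower. These counts are near those of all genes, of which 9.16% were lower and 5.45% higher at an unadjusted p under 0.05, and 24.0% higher and 24.8% lower without overlap.

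Among the adaptors and kinases downstream of Tek, Rasa1, a Ras GTPase-activating protein recruited to activated receptors, had the smallest p-value. It stood at 109.9 and 108 CPM in untreated replicates 1 and 2 and at 68.0 and 76.0 CPM in CCCP replicates 1 and 2, with a log2 fold change of -0.60 (SE 0.117, edgeR adjusted p = 0.166). DESeq2 called 1 of the 26 partners, Rasa1, against 3.32% of all genes. Pik3ca, the catalytic subunit of the PI3 kinase that Tek engages, stood at 120 and 104 CPM without treatment and 87.9 and 88.5 CPM with CCCP (log2 fold change -0.34, edgeR adjusted p = 0.303). Akt1, the kinase that acts after PI3 kinase, went the other way, from 255 and 281 CPM to 336 and 338 CPM (log2 fold change 0.33, edgeR adjusted p = 0.316).

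Of the other partners, Grb2, Shc1 and Ptpn11, adaptors and a phosphatase that bind the activated receptor, had log2 fold changes of 0.22, 0.25 and 0.09. The integrin subunits that also bind angiopoietins had values between -0.20 (Itgav) and 0.28 (Itgb5). Foxo1, a transcription factor that AKT keeps out of the nucleus and that drives Angpt2, stood at 41.3 and 41.7 CPM without treatment. With CCCP it stood at 39.1 and 40.1 CPM (log2 fold change -0.07), lower without overlap, as were 24.8% of all genes. The ETS factors Elf1, Elf2 and Ets1, whose core letters were counted in the promoters, overlapped between the groups, with log2 fold changes of -0.08, 0.02 and -0.06. Erg and Fli1, ETS factors counted among the endothelial markers, had log2 fold changes of -0.46 and -0.11. Erg was lower without overlap, as were 24.8% of all genes, and Fli1 overlapped. Angpt4, the third ligand of mouse Tek, was nearly uncounted, with at most 0.499 CPM in any library.

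Likeness to other genes was measured as the Euclidean distance between log2 CPM profiles centred on each gene's mean over the 4 libraries, among 10501 genes with a mean of at least 10 CPM. The closest genes were Ckap5, Acsl4 and Rad54b for Angpt1, at distances of 0.02 to 0.04, and Gmeb2, Arfrp1 and Fbxo33 for Angpt2, at 0.01. For Ptprb they were Zfp943, Pggt1b and Tpr, at 0.02 to 0.07, and for Tie1 they were Dnaaf5, Mmrn2 and Anp32a, at 0.05 to 0.06. Tek had no such near match. Its closest genes, Mastl, Onecut2 and Sgo2a, lay at 0.13 to 0.19. Between members the smallest distance was 0.30, for Angpt2 and Tie1, and the largest was 0.87, for Angpt2 and Tek. With 4 libraries, many genes come close to any profile by the group difference alone.

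**Figure D4:**
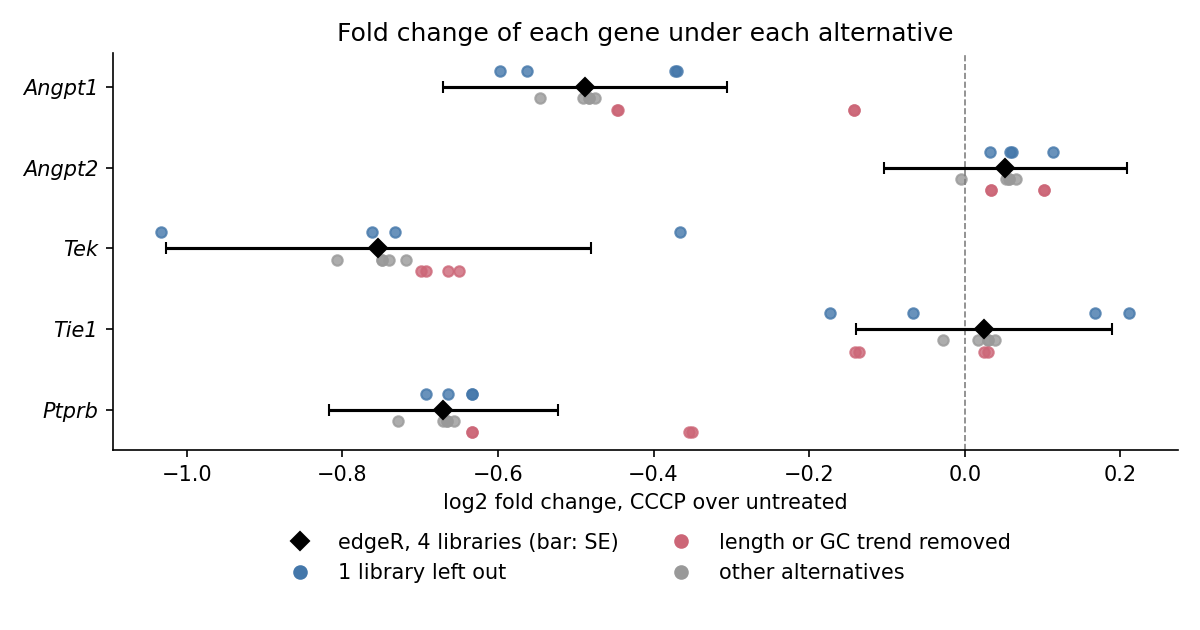
Log2 fold change of each gene (x axis) with all 4 libraries (black diamonds, bars are standard errors) and under each alternative (circles: 1 library left out, exon length or GC trend removed, other alternatives). Angpt1, Tek and Ptprb stayed below 0 under all 13 alternatives, Angpt2 changed sign under total counts alone, and Tie1 changed sign under 5 of them.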

How the data were processed

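The authors deposited raw read counts, obtained with featureCounts 2.0.3 over exons summed by gene (mm10, NCBI RefSeq annotation), per the file headers. Strand was not used in counting, while the library kit in the labels is directional, and each read of a pair was counted. HISAT2, SAMtools, FastQC and Subread are named in the submitters' processing notes, without their roles. The other values are the exon lengths in the authors' files. The 5 genes and all gene lists were chosen with earlier results of these data known.

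Groups followed the sample titles. The test was edgeR 4.0.16 (quasi-likelihood, two-sided) in R 4.3.3 with TMM scaling, filterByExpr (minimum count 10, total 15), the group as the sole term and Benjamini-Hochberg adjustment over 19837 genes. A standard error is the log2 fold change divided by the square root of F. The edgeR fit, not the standard error, was checked on simulated counts. Named genes were the 5 genes, genes of the pathway, angiopoietin-like and receptor phosphatase lists with an unadjusted p under 0.05, and the 3 nearest profiles per gene. Other list genes and markers were named after their values were seen, and marker lists are given mainly by sums and counts. Alternatives were DESeq2 1.42.0, RLE or total-count scaling, no filter, the replicate block, removal of loess trends (span 0.3) with exon length or GC content (GENCODE transcripts of the same build, known for 90.4% of genes), and leaving out each library. The correlation of same-numbered libraries' deviations from their group means was 0.36. No label says what a number marks, so the numbers were not treated as pairs. A count of 3, the floor, corresponds to 0.0599 to 0.0827 CPM. Intervals and the bars of the ratios cover counting error only. Both take the reads of a pair as independent, so they can be too narrow. One further gene is not reported here.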

Additional observations from a re-analysis of the deposited data

How the results depend on the processing

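The fold changes of Angpt1, Tek and Ptprb kept their direction under all 13 alternatives, and no other call than those given here changed. With the replicate block, Tek (-0.72, adjusted p = 0.0471, range 0.0471 to 0.843 over its alternatives) and Ptprb (-0.67, adjusted p = 0.0125) were called by edgeR, as were 10.7% of all genes. Tek was not called with the block and the exon length or GC trend removed. Ptprb was also called without the filter (-0.66), in DESeq2 (-0.67) and with the replicate block and the GC trend removed (-0.63), an alternative chosen after seeing the data, but not with the block and the exon length trend removed (-0.35, adjusted p = 0.144, range 0.0125 to 0.76). Angpt2 was at -0.0053 with total counts alone. Tie1 was at -0.028 with total counts alone, -0.14 with the GC trend removed and -0.14 with the replicate block as well. Leaving out 1 library gave -0.60 to -0.37 for Angpt1, 0.03 to 0.11 for Angpt2, -1.03 to -0.37 for Tek, -0.17 to 0.21 for Tie1, -0.69 to -0.63 for Ptprb and 0.43 to 0.65 for the Angpt2 to Angpt1 ratio. That ratio was at 0.24 with the GC trend removed, also chosen after seeing the data.

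The number of genes called, 0 in edgeR with all libraries, was 1107 without the filter, 594 in DESeq2, 2118 with the replicate block, 1216 with the block and the exon length trend removed, 702 with block and GC correction together, and 10 to 46 with 1 library left out. Of the 26 Tie pathway partners, 0 were called in edgeR and 1, Rasa1, without the filter, in DESeq2, with the replicate block and with the block and the exon length trend removed. The cause of these differences was not tested. With 1 library left out, the lone library of its group is assumed to vary like the other group.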

Other observations

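Of the angiopoietin-like genes, which encode secreted proteins related in sequence to the angiopoietins that do not bind Tek, 6 were read. By edgeR 0 of the 6 passed the adjusted threshold, and 1, Angptl8, was lower at an unadjusted p under 0.05, against 9.16% of all genes. Angptl8, made by liver and fat, stood at 0.779 and 0.508 CPM without treatment and at 0.124 and 0.0551 CPM with CCCP (edgeR adjusted p = 0.227). All 6 hepatic markers were lower in the CCCP libraries too, with a median log2 fold change of -4.66, and their part in these values was not tested. Angptl2, a widely made member, stood at 44.7 and 43.9 CPM without treatment and at 52.0 and 51.8 CPM with CCCP (log2 fold change 0.23, edgeR adjusted p = 0.396). Angptl4, a lipase inhibitor, overlapped between the groups, at 19.4 and 10.8 CPM without treatment and 21.2 and 13.0 CPM with CCCP.

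Of the 4 receptor phosphatases of the same class as Ptprb, 2 were too low to test. Ptprh and Ptprq did not pass the filter on low counts. Ptprj, which blood and endothelial cells express, stood at 18.3 and 20.7 CPM without treatment and at 15.9 and 17.2 CPM with CCCP, without overlap (log2 fold change -0.24, edgeR adjusted p = 0.53). Ptpro overlapped, at 25.2 and 14.4 CPM without treatment and 19.6 and 13.2 CPM with CCCP.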
